A study of Mus musculus with 11 samples.

Results

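The genes described here are 33 genes that neurons use to build axons, to release transmitter and hormones and to hold their identity, and all 33 were found by symbol among the 16755 genes of the deposited expression table. They were measured in maxillary molar tooth germs of mouse embryos at E14.5 (embryonic day 14.5), when the molar is at the cap stage. There were 4 wild-type libraries (Cilk1+/+), 4 *Cilk1*-/- libraries and 3 libraries of Cilk1-/-;PCS1-MRCS1△/△, called the compound mutant below. The libraries fall into 2 label sets. One holds replicates 1 to 3 of wild type and of *Cilk1*-/-. The other holds replicate 4 of each and all compound mutant libraries, so label set and compound mutant genotype are largely confounded. What the label sets stand for is not given. *Cilk1* encodes a kinase of the primary cilium, and its exon 6 had been deleted through EIIa-Cre, which acts in the early embryo, so every tissue of both mutants lacks it. The compound mutant also carries a homozygous deletion of 70 kb, with PCS1 and MRCS1 at its ends, in which enhancers of *Shh* lie. All mice were on a C57BL/6 background and of mixed sex, and the germs of a set came from littermates. Each biological replicate was a pool of n = 6, where the source does not say whether germs or embryos are counted. Poly-A RNA of whole germs was sequenced, so a library with fewer neurons and a library with less RNA per neuron cannot be told apart.

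A neuron keeps its cell body and nucleus in a ganglion and sends its axon to a target, so that most of its mRNA lies away from the tissue it serves. The molars are served by sympathetic neurons and by sensory neurons of the trigeminal ganglion, and axons of the latter gather around the tooth germ before birth. Such axons are accompanied by Schwann cells. Genes such as *Tubb3*, *Stmn2*, *Elavl3* and *Snap25* are used as general markers of neurons, since they serve the neuronal cytoskeleton, RNA processing and vesicle release in nearly all neuron types. Some of them, *Gap43* and *Uchl1* among them, are also known from glia, from endocrine cells or from mesenchyme.

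The deposited values are on the scale log2(value + 1), most likely of FPKM (fragments scaled to library size and transcript length), so levels can be set side by side between genes. Depth is unknown, so errors come from how much libraries of a genotype vary. *Ick*, the former symbol of *Cilk1*, lay between 3.45 and 3.60 in the wild-type libraries, between 2.72 and 2.86 in *Cilk1*-/- and between 2.60 and 2.67 in the compound mutant, with no overlap between genotypes. All 12 dental epithelium and all 12 dental mesenchyme markers were listed. Compound mutant replicate 1 stood apart, at 48.5 on a first principal component that held 41.6% of the variance over all genes, while the other libraries lay between −11.2 and 6.63. For most differences and tests the value without it is therefore given too. Wild-type and *Cilk1*-/- libraries of the same replicate number deviated from their genotype means in opposite directions, with correlations from −0.89 to −0.74 over all genes and from −0.98 to −0.50 over the 33 neuronal genes. They were treated as pairs, so each comparison was also fitted with the replicate number as a block, under which none of the 33 genes passed in any comparison (0 genes). Block values are printed for only some results below. A p-value given without one was not shown to hold under the block. The compound mutant libraries had correlations of only −0.12 to 0.26 over all genes with the libraries of the same number. Their place in the block thus rests on the number alone.

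The stretch before the transcription start is shown for 4 of the genes that carry the results below, *Tubb3* and *Isl1* as the genes that passed the test in the compound mutant, and *Elavl3* and *Prph* as genes with large differences between single libraries. The sequences are the 250 bases before the start in RefSeq (GRCm38.p6), 5′ to 3′ on the gene's strand. Capitals mark the E-box CAGCTG, the TATA box TATAAA and the left part of the RE1 element, CAGCACC, which on the opposite strand reads GGTGCTG. RE1 is the element through which the repressor REST is known to keep neuronal genes silent outside neurons, and CAGCTG is one of the E-boxes that helix-loop-helix factors bind.
*Tubb3*, chr8:123411303-123411552, plus strand: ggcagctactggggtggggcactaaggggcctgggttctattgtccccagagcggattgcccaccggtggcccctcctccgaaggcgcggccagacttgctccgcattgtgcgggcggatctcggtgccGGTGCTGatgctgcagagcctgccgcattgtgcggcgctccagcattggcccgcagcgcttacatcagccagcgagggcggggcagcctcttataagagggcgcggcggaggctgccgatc
*Isl1*, chr13:116309689-116309938, minus strand: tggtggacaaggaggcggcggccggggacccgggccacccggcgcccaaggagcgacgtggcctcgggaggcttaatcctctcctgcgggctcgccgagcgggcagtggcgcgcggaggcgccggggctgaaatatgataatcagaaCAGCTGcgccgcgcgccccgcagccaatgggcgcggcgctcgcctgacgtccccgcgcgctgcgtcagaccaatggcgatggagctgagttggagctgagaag
*Elavl3*, chr9:22052024-22052273, minus strand: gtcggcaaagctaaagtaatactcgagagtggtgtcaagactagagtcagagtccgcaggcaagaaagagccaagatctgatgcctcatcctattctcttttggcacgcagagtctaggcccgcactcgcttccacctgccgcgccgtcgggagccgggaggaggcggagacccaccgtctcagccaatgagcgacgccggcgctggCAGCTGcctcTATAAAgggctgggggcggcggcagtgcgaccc
*Prph*, chr15:99054924-99055173, plus strand: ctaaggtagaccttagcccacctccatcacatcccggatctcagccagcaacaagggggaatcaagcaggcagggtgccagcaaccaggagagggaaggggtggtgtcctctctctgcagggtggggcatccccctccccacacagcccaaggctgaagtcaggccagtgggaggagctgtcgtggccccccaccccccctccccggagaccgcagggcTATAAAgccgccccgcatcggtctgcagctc
The motifs, chosen after the expression values were known, were searched on both strands, and RefSeq gave promoters for 25 of the 33 genes, 43 in all. CAGCTG was found in 12 of the 43 promoters, against 13.0% of 32851 mouse promoters of the same length. These 12 promoters belong to 9 genes, *Celf3*, *Chga*, *Elavl3*, *Elavl4*, *Ina*, *Isl1*, *Kif1a*, *Pou4f1* and *Syt1*. In *Isl1* the E-box begins 103 bases before the start and in *Elavl3* 43 bases before it, next to a TATA box at 33 bases. The left part of RE1 was found in 5 promoters of 4 genes (*Chgb*, *Kif1a*, *Scg2* and *Tubb3*), against 5.73% of all promoters, and in *Tubb3* it lies 121 bases before the start. The right part of RE1, GGACAG, was found in 7 promoters of 6 genes, against 18.7% of all promoters. Both parts at the spacing of the full element were found in 0 of the 43 promoters and in 0.0335% of all. TATAAA was found in 6 promoters of 4 genes, against 12.4% of all promoters, and in *Prph* it lies 31 bases before the start.

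Most of the neuronal genes were near 0 in wild-type germs. On the log2 scale, 21 of the 33 had a wild-type mean under 1, and 29 were below the median gene of the table. The 6 genes with the highest wild-type means were *Gap43*, *Uchl1*, *Tubb3*, *Kif1a*, *Gng8* and *Crmp1*. *Gap43*, a protein of growing axon tips, was the highest, with 4.50, 4.77, 4.59 and 4.63 in wild-type replicates 1 to 4. *Uchl1*, the deubiquitinase known as the nerve fibre marker PGP9.5, was at 4.10, 4.48, 4.15 and 4.28. *Tubb3*, the neuronal β-tubulin, was at 4.08, 4.19, 4.43 and 3.96. Every *Gap43* value was above every *Uchl1* and *Tubb3* value, while *Uchl1* and *Tubb3* overlapped. *Kif1a*, a kinesin that carries synaptic vesicle precursors along axons, had a mean of 3.03 ± 0.0338 (SD, n = 4), *Gng8*, a G protein γ subunit, 2.80 ± 0.251 (SD, n = 4), and *Crmp1*, a collapsin response mediator of axon guidance, 2.61 ± 0.0653 (SD, n = 4). At the other end, *Pou4f1*, the factor that defines trigeminal and other somatosensory neurons, lay between 0.03 and 0.15 in all 11 libraries, with no group apart from the others. The plot of the 33 genes by library shows this order and the distance of compound mutant replicate 1.

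**Figure D1:**
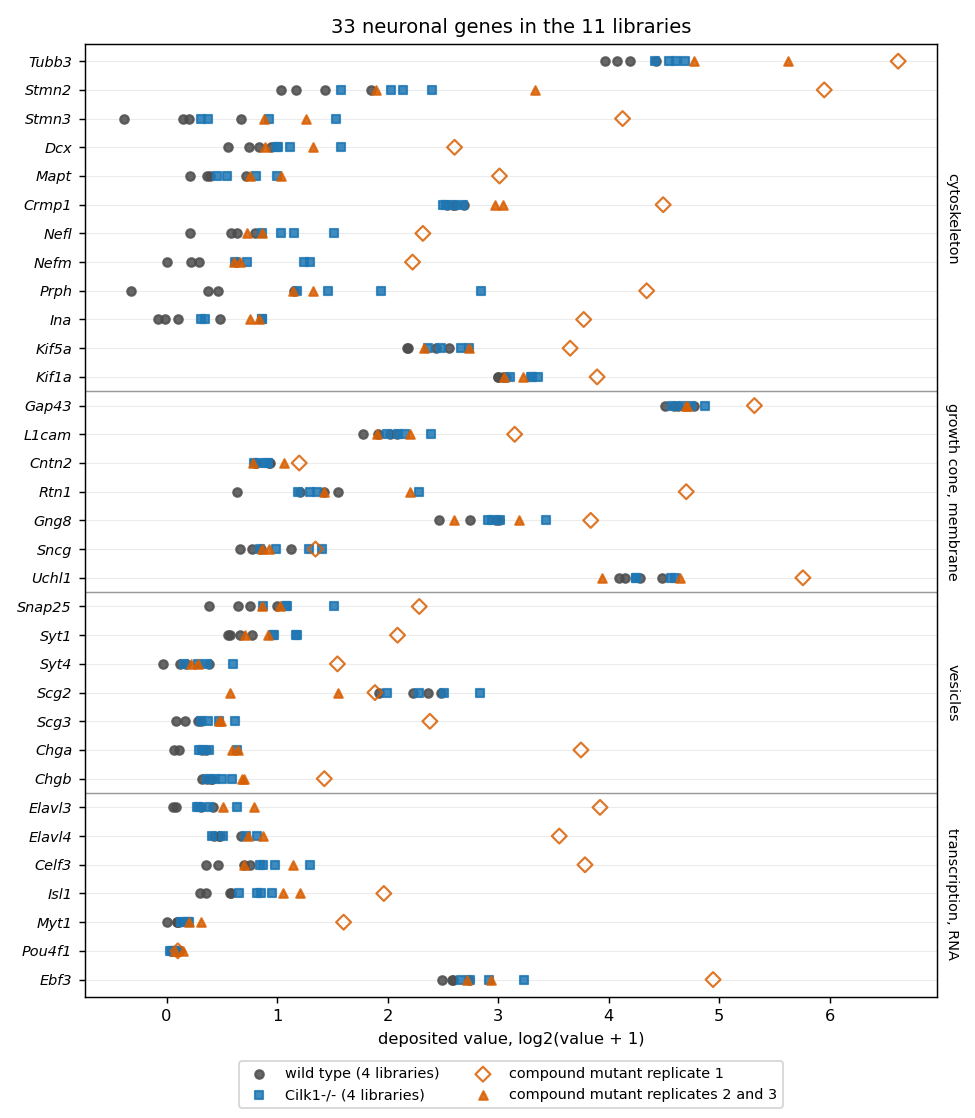
Deposited log2(value + 1) of each of the 33 neuronal genes (rows, grouped by role) in every library, with wild type as circles, *Cilk1*-/- as squares, compound mutant replicates 2 and 3 as triangles and compound mutant replicate 1 as an open diamond. The open diamond is the highest of the 11 libraries for 30 of the 33 genes, and *Scg2* is the gene with the triangles at the low end.

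Compound mutant replicate 1 had the highest value of all 11 libraries for 30 of the 33 genes. The exceptions were *Scg2*, *Sncg* and *Pou4f1*. In these 30 genes it exceeded the next library by 0.14 to 3.13 on the log2 scale, with a median of 1.07, and 16 of them stood over 1 unit above every other library. The shares of all genes for these counts were not computed, and this library stood apart over the whole table. Among marker lists described below, 10 of 10 cartilage and 8 of 9 ciliated epithelium genes were also highest in it. The same held for 0 of 14 skeletal muscle and 0 of 10 bone genes. Against the wild-type mean, the median difference of replicate 1 over the 33 genes was 1.76. The other compound mutant libraries were much closer to wild type, with median differences of 0.30 in replicate 2 and 0.28 in replicate 3. Replicate 3 was above replicate 2 in 18 of the 33 genes. *Stmn2*, which regulates microtubules in growth cones, had the largest difference of the 33 genes in replicate 1 and in replicate 3. It was at 1.43, 1.85, 1.17 and 1.03 in wild type, at 2.14, 1.58, 2.40 and 2.03 in *Cilk1*-/- and at 5.95, 1.90 and 3.34 in compound mutant replicates 1 to 3. Compound mutant replicate 2 was just above the highest wild-type library, replicate 3 was well above it, and replicate 1 was higher again. Turned back from the log2 scale and summed, the 33 genes came to between 96.7 and 117.8 in the wild-type libraries, between 117.8 and 149.1 in *Cilk1*-/-, and to 516.5, 132.8 and 151.7 in compound mutant replicates 1 to 3. The sum in replicate 1 was 4.38 times the highest wild-type sum.

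**Figure D2:**
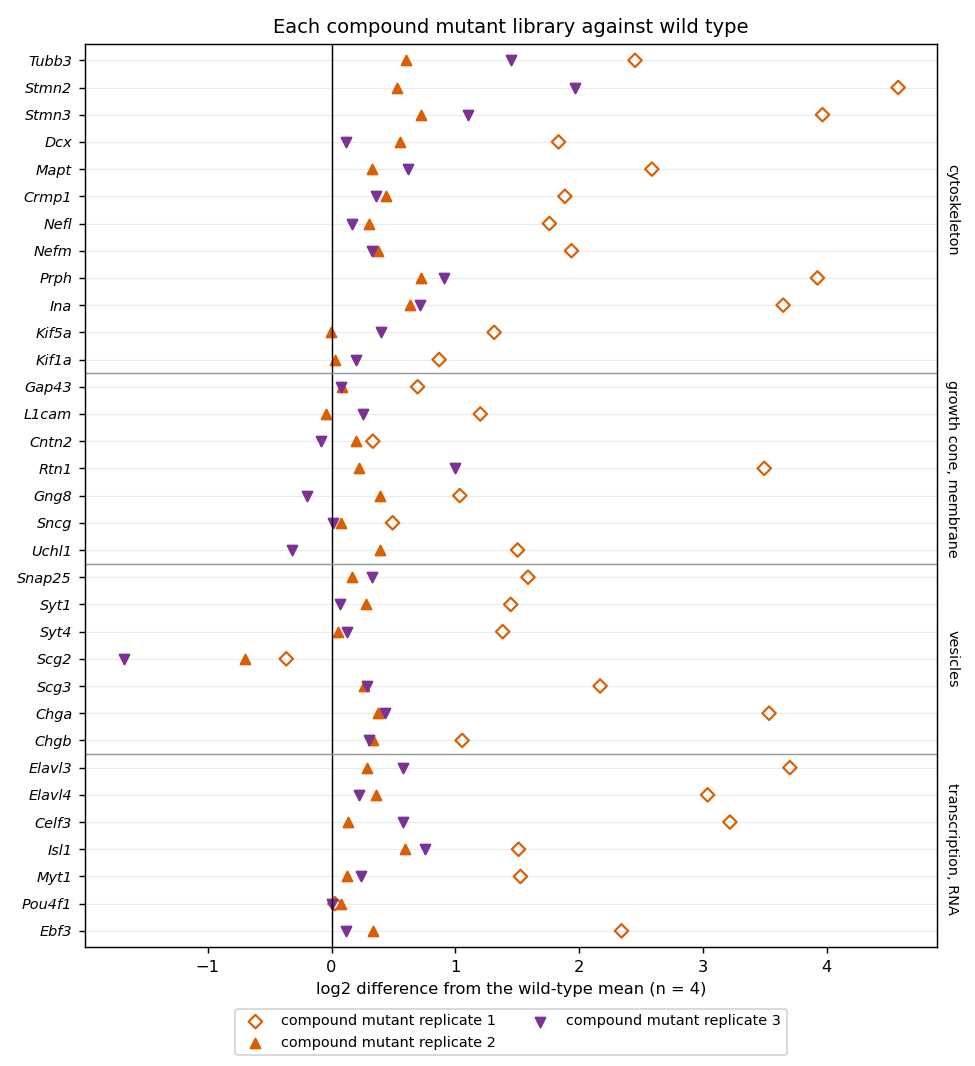
Difference on the log2 scale between each compound mutant library and the mean of the 4 wild-type libraries, for each of the 33 neuronal genes grouped by role. Replicate 1 (open diamonds) lies between −0.37 and 4.58, while replicates 2 and 3 (upright and inverted triangles) lie between −1.68 and 1.96 and mostly just right of 0.

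Against wild type, *Tubb3* and *Isl1* rose in the compound mutant, and no other of the 33 genes passed the test with all libraries in the fit. Calls required an adjusted p under 0.05 (limma, Benjamini-Hochberg over all genes) together with a fold change of 1.5 or more. These 2 of 33 stand beside 0.615% of all genes called higher in this comparison, and 0 of 33 were called lower, beside 0.633% of all genes. *Tubb3* (chr8:123411424-123422015, plus strand) was at 4.55, 4.60, 4.41 and 4.69 in *Cilk1*-/- and at 6.62, 4.77 and 5.62 in the compound mutant, so that every compound mutant library was above every other library. Its log2 difference from wild type was 1.503 (standard error 0.323, adjusted p = 0.0268, limma). *Isl1*, a LIM homeodomain factor of sensory and motor neurons that is also known from oral epithelium (chr13:116298281-116309689, minus strand), was at 0.58, 0.59, 0.35 and 0.30 in wild type, at 0.85, 0.65, 0.95 and 0.82 in *Cilk1*-/- and at 1.97, 1.05 and 1.21 in the compound mutant. The 3 genotypes did not overlap for *Isl1*, and its log2 difference between compound mutant and wild type was 0.95 (standard error 0.186, adjusted p = 0.0190, limma).

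Both calls held without compound mutant replicate 1, where *Tubb3* had a log2 difference of 1.03 (standard error 0.201, adjusted p = 0.0239, limma) and *Isl1* one of 0.68 (standard error 0.106, adjusted p = 0.0120, limma). In that fit, 2 of the 33 genes were called higher beside 0.43% of all genes, and 1 was called lower beside 0.591%. With the replicate block, *Tubb3* had an adjusted p of 0.127 and *Isl1* one of 0.0971 (limma), so that neither passed. Neither passed with the label set as a term (adjusted p = 0.199 and 0.161, limma). Without wild-type replicate 4, neither *Tubb3* (adjusted p = 0.0820) nor *Isl1* (adjusted p = 0.0642) passed, and *Tubb3* also missed the threshold without wild-type replicate 1 (adjusted p = 0.0580) or 2 (adjusted p = 0.0691, limma). The number of the 33 genes called higher was 14 without compound mutant replicate 2, beside 2.84% of all genes, and 6 without replicate 3, beside 1.04%. Within the label set that holds all compound mutant libraries, where wild-type replicate 4 is the only wild-type library, the difference was 1.71 for *Tubb3* and 1.11 for *Isl1*, and the median over the 33 genes was 0.86, with no test. Leaving out compound mutant replicate 1, these values were 1.23, 0.83 and 0.32.

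**Figure D3:**
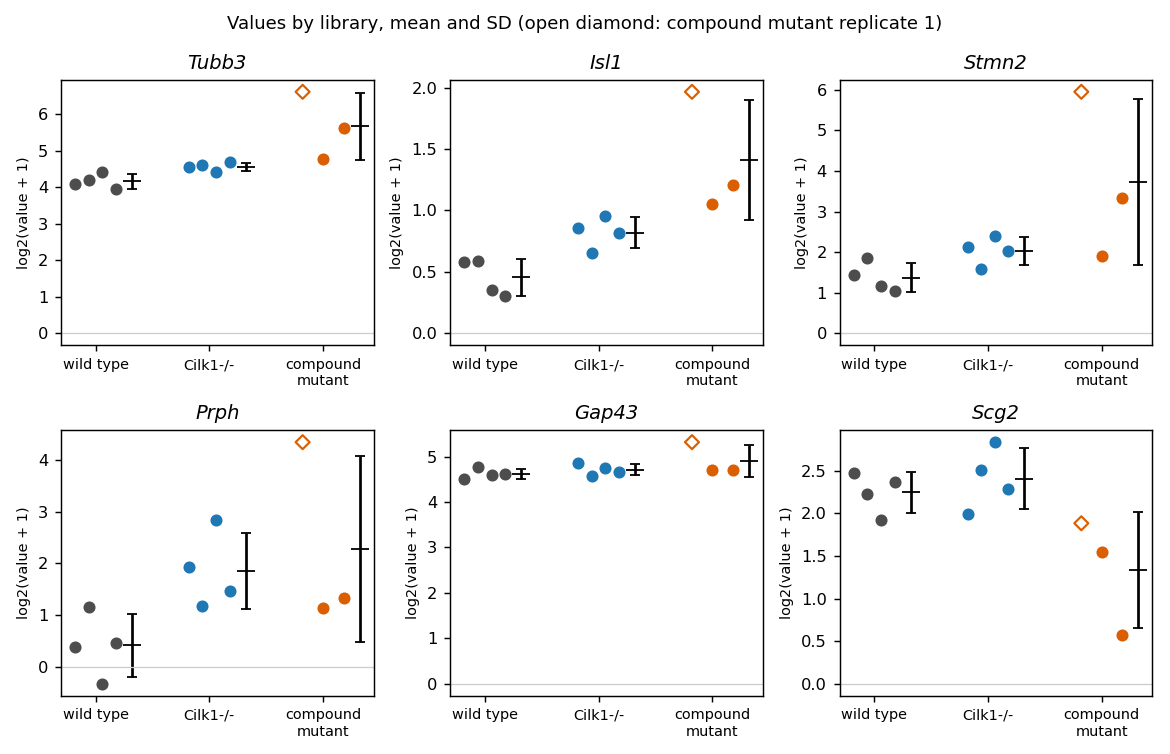
Values of 6 of the neuronal genes in every library on the log2(value + 1) scale, with the mean and SD of each genotype at the right of its points (n = 4, 4 and 3) and compound mutant replicate 1 as an open diamond. *Tubb3* and *Isl1* have all compound mutant libraries above all others, *Prph* is spread from −0.32 to 4.34, *Gap43* differs little outside the open diamond, and *Scg2* is lowest in the compound mutant.

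Over the 33 genes, the median log2 difference between compound mutant and wild type was 0.83, beside −0.0016 over all genes, and it was 0.27 without compound mutant replicate 1, beside −0.0067 over all genes. By p without adjustment (under 0.05, fold change as before), 20 of the 33 were higher, beside 2.04% of all genes, and 1 was lower, beside 0.943%. Without compound mutant replicate 1, 5 were higher, beside 0.961% of all genes, and 1 was lower, beside 0.955%. In 13 of the 33, all compound mutant libraries lay above all wild-type libraries, beside 8.92% of all genes, and the same 13 were found with compound mutant replicates 2 and 3 alone, beside 11.8% of all genes. They were *Tubb3*, *Stmn2*, *Stmn3*, *Mapt*, *Crmp1*, *Ina*, *Scg3*, *Chga*, *Chgb*, *Elavl3*, *Elavl4*, *Isl1* and *Myt1*.

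Of the 12 genes of the cytoskeleton and of axonal transport, 1 was called higher in the compound mutant (*Tubb3*), beside 0.615% of all genes. All 12 had a difference above 0, with a median of 1.03, or 0.43 without replicate 1. *Stmn2* had the largest difference at 2.36 (standard error 0.715, adjusted p = 0.0728, limma), and it was 1.25 without replicate 1 (adjusted p = 0.0861). *Crmp1* varied little within wild type and within *Cilk1*-/-, and every compound mutant library was above both. It was at 2.61, 2.69, 2.59 and 2.54 in wild type, 2.68, 2.53, 2.60 and 2.50 in *Cilk1*-/-, and 4.49, 3.04 and 2.97 in the compound mutant, and its difference of 0.40 without replicate 1 had an adjusted p of 0.0145 (limma) but was under the fold threshold. With the replicate block added to that fit, the adjusted p of *Crmp1* was 0.242 (limma). The neurofilament genes *Nefl*, *Nefm* and *Ina*, which set axon calibre, had differences of 0.74, 0.88 and 1.66 with all libraries and of 0.24, 0.35 and 0.67 without replicate 1. *Mapt*, which encodes tau, and *Stmn3*, a relative of *Stmn2*, had differences of 1.18 and 1.93, which were 0.47 and 0.91 without replicate 1. *Dcx*, the doublecortin of migrating young neurons, was at 2.60 in compound mutant replicate 1 and at 1.32 and 0.89 in replicates 2 and 3, against 0.56 to 0.94 in wild type. The kinesins *Kif5a* and *Kif1a* had the smallest differences of the group, 0.57 and 0.36, which were 0.20 and 0.11 without replicate 1. *Kif1a* was at 3.07, 2.997, 2.998 and 3.04 in wild type, 3.11, 3.36, 3.29 and 3.31 in *Cilk1*-/- and 3.89, 3.05 and 3.23 in the compound mutant, where replicate 2 lay inside the wild-type range. Exons of *Nefl* and *Nefm* overlap on opposite strands over up to 1108 bases, and those of *Ina* overlap *Nt5c2* on the other strand over up to 456 bases. Whether the counting used strand is not given in the sources used here, so these values are uncertain.

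None of the 7 genes of the growth cone, of adhesion and of the membrane was called, beside 0.615% of all genes called higher and 0.633% called lower. For 0 of the 7 did all compound mutant libraries lie above wild type, beside 8.92% of all genes. With so few genes, both counts are near these shares. Their median difference was 0.41, and 0.08 without replicate 1. *Gap43* was at 4.87, 4.58, 4.74 and 4.66 in *Cilk1*-/- and at 5.32, 4.71 and 4.70 in the compound mutant, so replicates 2 and 3 fell inside the wild-type range. *Uchl1* was at 4.60, 4.25, 4.56 and 4.25 in *Cilk1*-/- and at 5.76, 4.65 and 3.94 in the compound mutant, with replicate 3 below every other library. *Gng8* was at 2.98, 3.01, 2.47 and 2.75 in wild type, 2.94, 2.91, 3.43 and 3.01 in *Cilk1*-/- and 3.84, 3.19 and 2.60 in the compound mutant. *Gap43*, *Uchl1* and *Gng8*, which are well above the floor in wild type, thus did not separate the genotypes. *Rtn1*, a reticulon of the endoplasmic reticulum, was at 4.70 in compound mutant replicate 1, 1.43 in replicate 2 and 2.20 in replicate 3, against 0.64 to 1.55 in wild type. *L1cam* and *Cntn2*, which encode adhesion molecules of axons, had differences of 0.47 and 0.15, which were 0.11 and 0.06 without replicate 1. *Sncg*, which encodes γ-synuclein, had a difference of 0.19, or 0.04 without replicate 1, and its highest library was *Cilk1*-/- replicate 3 at 1.41. Exons of *L1cam* overlap *Arhgap4* over up to 100 bases.

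The 7 genes of vesicles and secretion held the one member that ran against the others. *Scg2* (chr1:79434669-79440120, minus strand), which encodes the granin secretogranin II of dense-core vesicles, was at 2.48, 2.23, 1.93 and 2.37 in wild type, at 1.99, 2.51, 2.84 and 2.29 in *Cilk1*-/- and at 1.88, 1.55 and 0.57 in the compound mutant. Every compound mutant library was below every other library. With all libraries its log2 difference from wild type was −0.92 (standard error 0.291, adjusted p = 0.0833, limma), which missed the threshold, and without compound mutant replicate 1 it fell by 1.19 (standard error 0.284, adjusted p = 0.0448, limma), with an adjusted p of 0.303 when the replicate block was added. The other granins went the other way in the same libraries. *Chga*, which encodes chromogranin A, lay between 0.06 and 0.36 in wild type and between 0.29 and 0.64 in *Cilk1*-/-, and it was at 3.75, 0.59 and 0.64 in the compound mutant. *Chgb* lay between 0.32 and 0.41 in wild type and was at 1.43, 0.70 and 0.68 in the compound mutant, a difference of 0.56 (standard error 0.152, adjusted p = 0.0527, limma), which was 0.32 without replicate 1 (adjusted p = 0.0235, under the fold threshold). *Scg3* lay between 0.09 and 0.31 in wild type and was at 2.38, 0.47 and 0.50 in the compound mutant. The genes of the release machinery, *Snap25*, a SNARE protein, and *Syt1*, the calcium sensor of fast release, had differences of 0.69 and 0.60 with all libraries and of 0.25 and 0.17 without replicate 1. *Syt4*, a synaptotagmin of dense-core vesicles, had differences of 0.52 and 0.09.

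Of the 7 genes of transcription and RNA regulation, *Isl1* was called higher, and 5 of the 7 stood over 1 log2 unit above every other library in compound mutant replicate 1. *Elavl3*, an RNA-binding Hu protein of neurons, was at 0.31, 0.42, 0.08 and 0.05 in wild type and at 3.92, 0.51 and 0.79 in the compound mutant. *Elavl4*, its relative, lay between 0.43 and 0.67 in wild type and was at 3.55, 0.87 and 0.74 in the compound mutant. *Celf3*, a splicing regulator whose exons overlap *Riiad1* over up to 74 bases, lay between 0.35 and 0.76 in wild type and was at 3.78, 0.70 and 1.15 in the compound mutant. For *Elavl3* and *Elavl4* replicates 2 and 3 were above the wild-type range by little, and replicate 2 was inside it for *Celf3*. *Myt1*, a zinc finger factor of differentiating neurons, was at 0.11 or less in wild type and at 1.60, 0.20 and 0.31 in the compound mutant. *Ebf3*, a helix-loop-helix factor, was already at 2.60 ± 0.103 (SD, n = 4) in wild type and was at 4.94, 2.94 and 2.72 in the compound mutant.

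Between *Cilk1*-/- and wild type, none of the 33 genes was called in either direction with all libraries in the fit (limma, 0 genes), beside 0.155% of all genes called higher and 0.215% called lower. By p without adjustment the count was also 0, beside 0.412% of all genes. In 30 of the 33 genes the *Cilk1*-/- mean was nevertheless above the wild-type mean, with a median log2 difference of 0.27, beside 0.0032 over all genes. It was 0.18 without *Cilk1*-/- replicate 3 and 0.19 without wild-type replicate 3. *Prph*, which encodes peripherin, the intermediate filament of peripheral neurons, had the largest difference at 1.44 (standard error 0.661, adjusted p = 0.251, limma). It was at 0.38, 1.15, −0.32 and 0.46 in wild type and at 1.94, 1.18, 2.85 and 1.46 in *Cilk1*-/-, so all *Cilk1*-/- libraries were above all wild-type libraries. *Nefm*, the medium neurofilament, was at 0.22, 0.63, 0.00 and 0.30 in wild type, at 1.25, 0.62, 1.30 and 0.73 in *Cilk1*-/- and at 2.22, 0.66 and 0.61 in the compound mutant, a *Cilk1*-/- difference of 0.69 (standard error 0.329, adjusted p = 0.268, limma). Without compound mutant replicate 1, which enters only through the shared estimate of the spread, *Nefm* was called higher in *Cilk1*-/- (adjusted p = 0.0493, limma), as 1 of 33 beside 0.251% of all genes. In the same fit *Syt1*, *Isl1* and *Kif1a* had adjusted p of 0.0186, 0.0417 and 0.0494 (limma). Their differences of 0.43, 0.37 and 0.24 were under the fold threshold. The share of all genes under that adjusted p alone was not computed. Under the replicate block with all libraries *Nefm* had an adjusted p of 0.384 (limma). *Syt1*, *Isl1* and *Kif1a* had adjusted p of 0.458, 0.358 and 0.525 there (limma). For 9 of the 33, all *Cilk1*-/- libraries were above all wild-type libraries, beside 10.2% of all genes, and these were *Dcx*, *Nefl*, *Prph*, *Kif1a*, *Syt1*, *Scg3*, *Celf3*, *Isl1* and *Myt1*.

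Within pairs of the same replicate number, the *Cilk1*-/- library was above the wild-type library in 28, 15, 31 and 26 of the 33 genes for numbers 1 to 4, with median log2 differences of 0.28, −0.05, 0.60 and 0.23. The pair of number 2 thus showed no shift, and the pair of number 3 showed the largest. Over all genes the medians within pairs were 0.0086 or less in size. *Prph* differed by 1.56, 0.03, 3.17 and 0.996 in the 4 pairs, and *Isl1* by 0.28, 0.07, 0.60 and 0.52. In 10 of the 33 genes the difference was above 0 in all 4 pairs, beside 11.4% of all genes, and these were the 9 named above and *Ebf3*. Wild-type replicate 3 was the lowest wild-type library in 19 of the 33 genes, and *Cilk1*-/- replicate 3 was the highest *Cilk1*-/- library in 22. Wild-type replicate 2 was the highest wild-type library in 22. The mirrored deviations of the pairs noted above stand beside these counts. With the replicate number as a block, the median difference was 0.27 and 0 genes were called. Within the label set of numbers 1 to 3 it was 0.28, and within the set of number 4 it was 0.23.

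**Figure D4:**
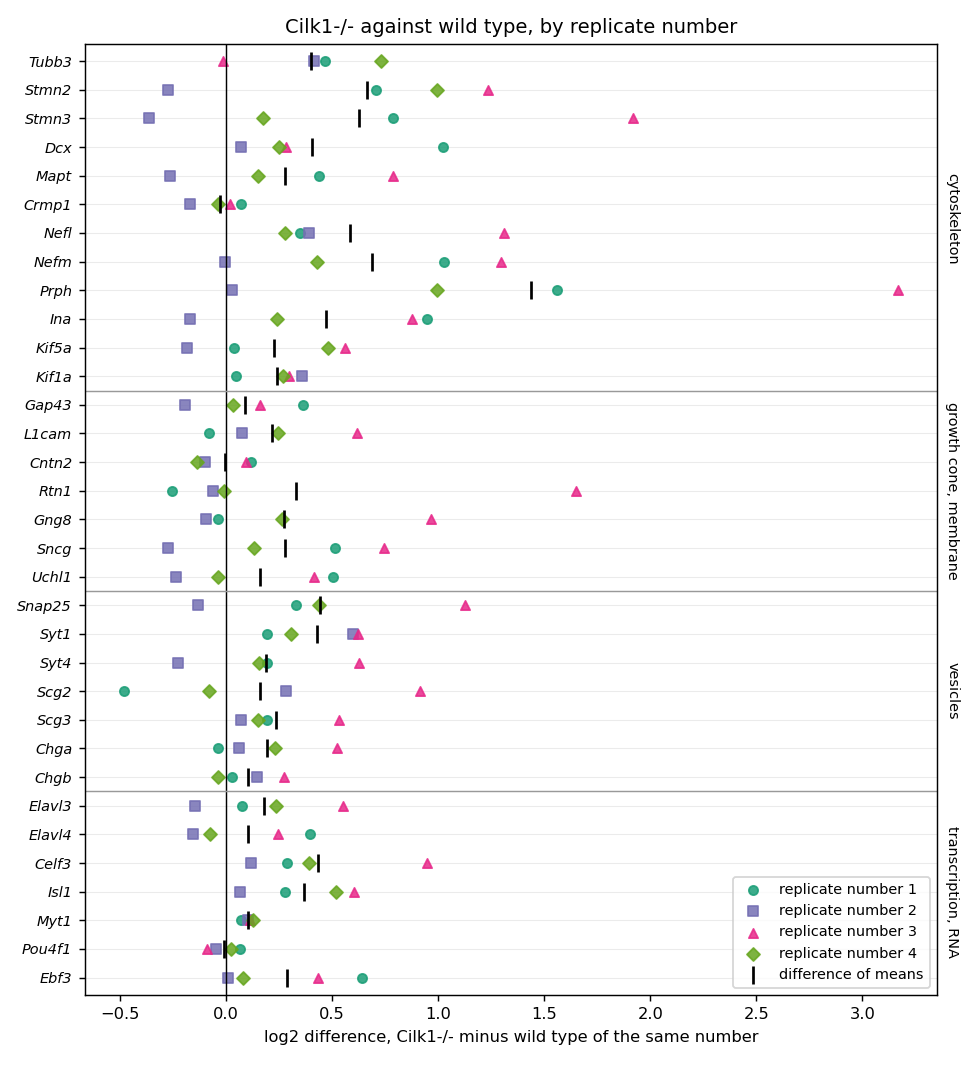
Log2 difference between the *Cilk1*-/- and the wild-type library of the same replicate number for each of the 33 neuronal genes, with 1 symbol per number and a bar at the difference of the genotype means. Squares (number 2) scatter around 0 with a median of −0.05, while triangles (number 3) reach 3.17 in *Prph*.

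Between the compound mutant and *Cilk1*-/-, 0 of the 33 genes were called higher with all libraries in the fit (limma), beside 0.155% of all genes, and 4 were higher by p without adjustment, beside 1.12%, and 1 was lower, beside 0.973%. The median difference was 0.43, beside 0.0028 over all genes, and −0.01 without compound mutant replicate 1. Without that library, 16 of the 33 genes were above *Cilk1*-/- and *Scg2* was called lower, with a log2 difference of −1.35 (standard error 0.284, adjusted p = 0.0439, limma), as 1 of 33 beside 0.358% of all genes. Under the replicate block with all libraries *Scg2* had an adjusted p of 0.247 in this comparison (limma). The genes whose compound mutant libraries were all above all *Cilk1*-/- libraries were *Tubb3*, *Crmp1*, *Chgb*, *Isl1* and *Myt1*, beside 7.74% of all genes, and the same 5 stood apart with replicates 2 and 3 alone, beside 10.9% of all genes. *Prph*, *Nefl*, *Nefm* and *Syt1* were on the other side without replicate 1, at −0.62, −0.35, −0.34 and −0.26. Both comparisons with wild type share its 4 libraries. The number of the 33 called higher was 3 without compound mutant replicate 2, beside 1.34% of all genes, and 2 without replicate 3, beside 0.674%.

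Most of the 33 genes varied together from library to library. Over the 11 libraries, the correlation of each gene with the mean of the other 32 had a median of 0.95 and was above 0.5 for 31 genes. Over the 10 libraries without compound mutant replicate 1, the median was 0.75 and 27 genes were above 0.5, and over the 8 wild-type and *Cilk1*-/- libraries alone it was 0.84. *Scg3*, *Stmn3* and *Prph* followed the others most closely without compound mutant replicate 1, at 0.98, 0.95 and 0.94. *Tubb3* and *Crmp1*, which were among the genes highest in the compound mutant, followed them less, at 0.39 and 0.34, and *Scg2* and *Pou4f1* did not, at −0.18 and −0.12. The libraries share their genotype, and those of wild type and *Cilk1*-/- mirror each other, so these correlations are descriptions.

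The neuronal genes outside the 33 were read from lists for the cytoskeleton, for synapses and secretion and for transcription and RNA regulation. Of 22 listed cytoskeleton genes, *Tubb4a*, another β-tubulin, was called higher in the compound mutant (log2 difference 0.76, adjusted p = 0.0361 by limma, which became 0.148 under the block). Its difference was 0.499 without compound mutant replicate 1, which is under the fold threshold, so that the call was lost. *Tagln3*, a cytoskeletal protein of neurons, was called lower in both mutants, at 3.63 to 3.80 in wild type, 2.91 to 3.12 in *Cilk1*-/- and 3.31, 3.15 and 2.77 in the compound mutant. For *Tagln3* the *Cilk1*-/- difference had an adjusted p of 0.0132 (0.0846 under the block), and the compound mutant difference one of 0.0115 (0.0814 under the block, limma). None of 23 listed synapse genes and none of 18 listed transcription genes was called with all libraries (limma, 0 in both comparisons with wild type), and the medians in the compound mutant were 0.38 in each, or 0.11 in each without replicate 1. *Syp*, which encodes synaptophysin of synaptic vesicles, lay between 0.23 and 0.83 in wild type and was at 3.16, 1.09 and 1.22 in the compound mutant. Without compound mutant replicate 1, *Insm1*, a zinc finger factor of neuronal and endocrine precursors, was called higher in the compound mutant (log2 difference 0.61, adjusted p = 0.0427, limma). In the same fit, *Gria2*, a glutamate receptor subunit, was called higher in *Cilk1*-/-.

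Markers of particular neuron types did not all follow the 33 genes. Of 24 somatosensory genes, 17 were listed, and *Pou4f2*, *Pou4f3*, *Tlx3*, *Drgx* and *Prdm12* were not among them. None of the 17 was called with all libraries, their median difference in the compound mutant was 0.06, or 0.02 without replicate 1, and their summed level was 109.1 to 112.0 in wild type, 122.4 to 133.2 in *Cilk1*-/- and 142.8, 118.3 and 115.3 in compound mutant replicates 1 to 3. *Calca*, which encodes the peptide CGRP of pain fibres, was at 3.66 to 4.02 in wild type, 4.37 to 4.76 in *Cilk1*-/- and 3.09 and 3.17 in compound mutant replicates 1 and 3, with replicate 2 inside the wild-type range. It was called higher in *Cilk1*-/- only without compound mutant replicate 1. Of 15 autonomic genes, 8 were listed and *Phox2a*, *Dbh* and *Hand2* were not. The 8 listed genes had a median difference in the compound mutant of 0.36, or 0.01 without replicate 1. Their sum was 4.3 to 5.8 in wild type and 47.6, 4.7 and 6.7 in the compound mutant, with *Gata2* at 4.71 in replicate 1 against 1.34 to 1.72 in wild type. Of 19 olfactory genes, 13 were listed, with a median difference in the compound mutant of 0.10, or 0.007 without replicate 1. Their sum was 75.2 to 78.6 in wild type and 166.7, 69.8 and 67.4 in the compound mutant, and *Lhx2* and *Calb2* were at 4.94 and 4.64 in replicate 1 against 0.57 or less in wild type. With all libraries *Lhx2* and *Calb2* missed the threshold (adjusted p = 0.153 and 0.127, limma), and without replicate 1 both were called higher there (adjusted p = 0.0394 and 0.00845 by limma), at 0.82 and 0.94 for *Lhx2* and 0.76 and 0.91 for *Calb2* in replicates 2 and 3.

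The sum of Schwann cell and glial markers did not move with the 33 genes, but most single markers were highest in compound mutant replicate 1. All 17 were listed, and their summed level was 117.0 to 125.8 in wild type, 110.5 to 124.5 in *Cilk1*-/- and 124.2, 121.8 and 93.3 in the compound mutant, although 13 of the 17 were highest in compound mutant replicate 1. *Tfap2b* and *Ngfr*, which held much of the sum, were low in that library. *Tfap2b* was at 5.32 to 5.73 in wild type and at 4.21, 5.65 and 4.21 in compound mutant replicates 1 to 3. *Ngfr* was at 3.76, 4.40 and 4.40 in these replicates. The median difference of the 17 in the compound mutant was 0.17, or −0.01 without replicate 1. *Ngfr*, the low-affinity neurotrophin receptor, fell in *Cilk1*-/- by 0.75 on the log2 scale (adjusted p = 0.0193 by limma, which became 0.134 under the block) and lay between 4.58 and 4.85 in wild type and between 3.83 and 3.96 in *Cilk1*-/-. *Fabp7*, a fatty acid binding protein of glial precursors, was called higher in *Cilk1*-/- only without compound mutant replicate 1. None of the 18 neurotrophic ligands and receptors was called with all libraries, and their median difference in the compound mutant was −0.16, or −0.11 without replicate 1. Without compound mutant replicate 1, the axon guidance gene *Ntn1* was called lower in both mutants. Compound mutant replicate 1, the library highest in general neuronal markers, was inside the wild-type range for the Schwann cell sum and near 0 for *Pou4f1*. Most single glial markers were nevertheless highest there, with *Fabp7* at 3.01 against 1.23 to 1.63 in wild type.

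Other tissues moved in compound mutant replicate 1 beside the neuronal genes, and their part in the result was not tested. Of 12 cartilage genes, 10 were listed and all 10 were highest in that library. Their sum was 45.3 to 62.8 in wild type, 56.8 to 68.9 in *Cilk1*-/- and 1022, 89.4 and 95.9 in compound mutant replicates 1 to 3, so that replicates 2 and 3 were also above every wild-type library. *Col2a1*, the main collagen of cartilage, was at 8.62 in replicate 1 against 3.58 to 3.72 in wild type. Of 11 genes of ciliated epithelium, 9 were listed with sums of 23.9 to 27.8 in wild type and 68.3, 27.0 and 26.9 in the compound mutant. The dental markers were low in replicate 1, with sums of 541.9 against 906.0 to 1159 in wild type for dental epithelium and 565.0 against 884.8 to 972.5 for dental mesenchyme. Compound mutant replicate 3, in which *Tubb3* and *Stmn2* were next highest, had an erythroid sum of 1060 against 2892 to 3785 in wild type and an oral keratinizing sum of 217.4 against 74.4 to 142.4. In *Cilk1*-/- the skeletal muscle sum was 28.9 to 78.2 against 14.1 to 42.6 in wild type, and it was 11.7 to 14.1 in the compound mutant. Bone, macrophage and endothelial lists had median differences between compound mutant and wild type of 0.01, −0.10 and 0.06, which were 0.34, −0.15 and 0.07 without replicate 1. The bone sum was 625.0 to 942.4 in wild type and 681.0, 1151 and 1080 in compound mutant replicates 1 to 3, and no gene of the lists in this paragraph was called in either comparison with wild type with all libraries. Without replicate 1, the cartilage gene *Col9a1* was called higher in the compound mutant.

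**Figure D5:**
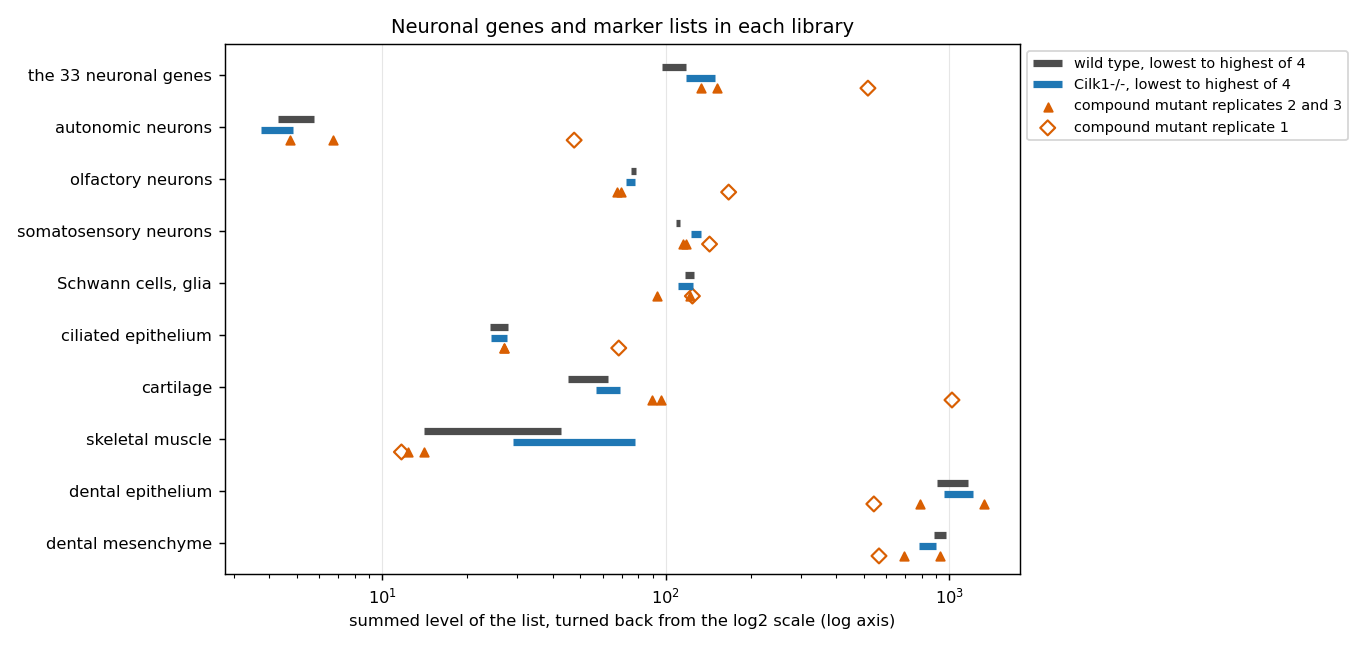
Summed level of the 33 neuronal genes and of 9 marker lists, turned back from the log2 scale and drawn on a log axis, with bars from the lowest to the highest of the 4 wild-type and of the 4 *Cilk1*-/- libraries, triangles for compound mutant replicates 2 and 3 and an open diamond for replicate 1. In replicate 1 the cartilage sum reaches 1022 and the neuronal sum 516.5, while both dental sums lie to the left of their wild-type bars. The Schwann cell sum stays within its wild-type bar there, although 13 of its 17 genes were highest in that library.

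The genes outside the 33 whose values followed the mean of the 33 most closely over the 11 libraries, among 1144 genes with a mean of at least 1 and an SD of at least 0.3, were *Foxo6*, *Syp*, *BC068157*, *Lrrc16b*, *Rprm*, *Col9a1*, *Chadl*, *Map1b*, *Unc13b* and *Pgbd5*, with Pearson correlations of 0.98 to 0.99. *Col9a1* is a cartilage collagen, and *Map1b* is a microtubule protein of growing axons. Without compound mutant replicate 1, over 10 libraries, the closest were *Syp*, *Ppp1r14a*, *Map1b*, *Foxo6*, *Dlx1*, *Rprm*, *BC068157*, *Snord15b*, *Mab21l3* and *Lrrc16b*, at 0.83 to 0.93. The same 1144 genes were ranked, so the filter on mean and SD still used replicate 1. *Syp*, for example, had means of 0.60 in wild type and 0.97 in *Cilk1*-/-, and was at 3.16 in that library. The lists share 6 genes, and *Col9a1* is not among them.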

How the data were processed

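RNA of maxillary molar tooth germs was measured in 4 wild-type, 4 *Cilk1*-/- and 3 compound mutant libraries, grouped by their labels. The authors mapped reads to mm10 with HISAT2 2.0.5, counted them per gene with featureCounts 1.5.0-p3, calculated FPKM and tested with edgeR. The deposited values are log2(value + 1), most likely of FPKM, for 16755 genes. Some are below 0 and same-numbered wild-type and *Cilk1*-/- libraries mirror each other, so a term may have been removed, and the sources used here name no such step. Counts and depth are not known, and a count model was not fitted.

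The 3 genotypes were compared in one fit of limma 3.58.1 (lmFit, eBayes with trend and robust) in R 4.3.3 over all genes without a filter, with Benjamini-Hochberg adjustment, and the fit was tested on simulated data. Differences are taken as log2(value + 1), which understates the change of low genes. P-values rest on the spread between pools of littermate germs, which may come from few litters. Without the block the fit takes libraries as independent, while same-numbered wild-type and *Cilk1*-/- libraries mirrored each other. Its p-values may therefore not measure the natural spread between pools. The replicate numbers were taken as pairs because the deviations of same-numbered libraries were correlated, with the opposite sign, and the compound mutant was placed in that block by number alone. The members, the 18 companion lists and the rule for named genes were chosen with earlier results of these data known. By that rule all 33 members are named, with every library for those called in any comparison and the 6 highest in wild type, plus from each list its called genes and the largest differences, and the 10 genes most like the members' mean. Some genes of the companion lists are not reported here. *Stmn2*, *Prph*, *Chga* and *Elavl3* are also given in detail, as chosen after their values were seen. Alternatives were fits restricted to 2 genotypes, the block, the label set as a term, other moderation, a filter, a pseudocount of 0.1, other scaling and leaving out each library. Gene positions and exons came from GENCODE vM21, promoters from RefSeq. Plots were made in Python 3.11.15 with matplotlib 3.10.9.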

Additional observations from a re-analysis of the deposited data

Results flagged for a closer look

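Of 66 groups of 4 libraries tested among the 33 genes, 2 held a library far from the other 3, where chance flags about 1 in 20 groups. *Rtn1* in *Cilk1*-/- replicate 3 was at 2.28, while the other *Cilk1*-/- libraries lay between 1.19 and 1.36. *Myt1* in wild-type replicate 4 was at 0.0078, while the other wild-type libraries lay between 0.092 and 0.108, all of them near the floor of the scale.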

How the results depend on the processing

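With the compound mutant against wild type, the number of the 33 genes called higher was 2. It became 0 in a fit of only the 2 genotypes, with the replicate block, with the label set as a term, with the block that places the compound mutant with number 4 and with the block without compound mutant replicate 1. Both of these last settings were chosen after seeing the data. It became 1 among genes with a mean of at least 1 and 4 with a pseudocount of 0.1, was 20 at an unadjusted p, and ranged from 0 (without wild-type replicate 4) to 14 (without compound mutant replicate 2) when single libraries were left out, being 6 without compound mutant replicate 3 and 1 without wild-type replicate 1 or 2. The median difference of 0.83 became 1.39 with a pseudocount of 0.1 and 0.25 with the block without compound mutant replicate 1, and ranged from 0.27 to 1.05 over left-out libraries. In *Cilk1*-/- against wild type, the count of 0 became 2 (*Nefm* and *Prph*) in a fit of the 2 genotypes and ranged from 0 to 1 over left-out libraries, and the median of 0.27 became 0.61 with a pseudocount of 0.1 and ranged from 0.18 (without *Cilk1*-/- replicate 3) to 0.33 over left-out libraries. Between the mutants, the count of 0 became 4 at an unadjusted p and ranged from 0 to 3 over left-out libraries, and the median of 0.43 ranged from −0.01 to 0.72, the lowest without compound mutant replicate 1. The cause of these shifts was not tested. Of 370 repeats of single-gene results for 11 genes, 341 stayed on the same side of the threshold, 14 lost it, 15 gained it and 0 reversed. Most of the 341 were results that had not passed with all libraries. All 14 losses fell on the 2 that had passed, those of the compound mutant against wild type. *Tubb3* lost its call in 8 repeats and kept it in 13, and *Isl1* lost it in 6 and kept it in 14. Among the members, the replicate block changed no call with all libraries other than those of *Tubb3* and *Isl1*. Depth is unknown, so what it limits cannot be given.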
